A study of Mus musculus with 6 samples.

Results

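The genes described here were grouped under extracellular triglyceride hydrolysis and lipoprotein uptake. They are Angptl4, Angptl2, the lipoprotein lipase gene Lpl, the lipase maturation factors Lmf1 and Lmf2, and the lipoprotein receptors Vldlr, Lrp1 and Lrp8. They were listed by name, and a gene was kept where a probe set of the array was tied to 1 gene symbol. Of the 8 listed genes, 7 had such a probe set, each exactly 1, out of 19938 genes named in the same way. Angptl2 was not analysed here. Angptl4 changed most: oleate raised it 5.94-fold and palmitate 4.56-fold. Plin2 siRNA went with lower Angptl4, Lmf2 and Lrp1 and with higher Lpl.

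Lipoprotein lipase hydrolyses the triglyceride of chylomicrons and very low density lipoproteins at the capillary wall, and muscle is one of the tissues that makes it. The enzyme is folded in the endoplasmic reticulum with the help of lipase maturation factor 1 and is inactivated by angiopoietin-like 4, a secreted protein whose gene is a target of the fatty acid-sensing PPAR nuclear receptors. Receptors of the low density lipoprotein receptor family bind lipoprotein remnants and, in part, the lipase itself.

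Messenger RNA was profiled in C2C12 myotubes, the multinucleated cells that a mouse myoblast line forms when serum is lowered from 10% to 2%. All cells received siRNA at 10 nM, either a scrambled control or one against Plin2, the gene of the lipid droplet coat protein perilipin 2. With each siRNA, cells were given BSA alone, oleate or palmitate for 20 h. Each fatty acid was used at 200 µM with 2.5 molecules per BSA, so the design has 6 conditions with 1 array each. All cells come from a single established line cultured without other cell types, and knockdown was by transient transfection. No label says whether the cultures were separate, so each p-value here reflects the spread among these 6 arrays alone, which may be technical.

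The targeted gene was lower in each array of its siRNA. Plin2 read 9.29, 10.03 and 10.10 on the log2 scale in scrambled BSA, oleate and palmitate, and 6.95, 7.63 and 7.45 with Plin2 siRNA. Its fitted change was -2.47 (SE 0.08, limma adjusted p = 2.32e-08). Array medians ran from 4.94 to 5.02. Of 15 myotube markers, 8 fell and 0 rose with Plin2 siRNA, and the list mean was 11.14 to 11.40 in scrambled arrays and 10.98 to 11.03 in Plin2 siRNA arrays. Of 9 markers of undifferentiated myoblasts, 5 rose (Myf5, Myod1, Id1, Id2 and Id3) and 2 fell (Cdh15 and Itga7), with list means of 9.47 to 9.62 and 9.74 to 9.86. Over all named probe sets, 8.58% were called lower and 8.5% higher with Plin2 siRNA. Both marker lists move with the siRNA, and their part in the siRNA results below was not tested. In whole cultures, fewer cells of a type and less RNA per cell cannot be told apart. None of the 8 measured adipocyte or 8 endothelial markers passed the test with either siRNA or fatty acid, and their gene means were 3.47 to 6.54 and 3.28 to 5.41. Of 7 macrophage markers Cd68 fell, and of 8 fibroblast markers Pdgfra rose and Postn fell with Plin2 siRNA. No marker of any list passed the test with oleate or palmitate. At an unadjusted limma p under 0.05 there were 6 of the 15 myotube markers with palmitate and 2 with oleate. Among the 21789 named probe sets there were 1134 and 1365.

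Angptl4, the lipase inhibitor, was the member that responded to fatty acids. In the scrambled arrays it read 8.41 (BSA), 10.73 (oleate) and 10.43 (palmitate) on the log2 scale. In the Plin2 siRNA arrays it read 7.70, 10.52 and 10.06. The 4 fatty acid arrays all lay above both BSA arrays, and with each siRNA oleate gave the higher value of the fatty acids. With 1 array per condition there is no spread for a single condition, so the order of neighbouring conditions, here and for the other genes, is a description.

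Over both siRNAs, oleate raised Angptl4 by 2.57 on the log2 scale (SE 0.11, 95% confidence interval 2.33 to 2.81, limma adjusted p = 1.22e-06). That is 5.94-fold (5.04 to 6.99). Palmitate raised it by 2.19 (SE 0.11, interval 1.95 to 2.42, limma adjusted p = 7.14e-06), which is 4.56-fold (3.87 to 5.37). Taking both fatty acids against BSA, the rise was 2.38 (interval 2.17 to 2.58, limma adjusted p = 5.86e-07). In each of the 4 differences between a fatty acid array and the BSA array of the same siRNA, Angptl4 was rank 1 by size among 21789 named probe sets. Those 4 differences were 2.32 for oleate and 2.02 for palmitate with scrambled siRNA, and 2.82 and 2.36 with Plin2 siRNA. The same 2 BSA arrays serve as control for both fatty acids. The calls ended when all 35556 probe sets entered the fit (adjusted p = 0.0577 for oleate and 0.147 for palmitate) and when the variance was not moderated across probe sets (0.87 and 0.98). Over 14 alternatives the limma adjusted p ran from 2.67e-80 to 0.87 for oleate and from 1.73e-88 to 0.98 for palmitate, while the changes stayed between 2.36 and 2.78 and between 1.98 and 2.40. The smallest of these came from fits of 5 or 4 arrays with 1 residual degree of freedom, where limma borrowed 377 to 690 degrees from the other probe sets instead of 9.21.

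No other member passed the test with a fatty acid, so 1 of 7 members was called higher with oleate, with palmitate and with both taken against BSA. Over all named probe sets the share called higher was 0.0321% with oleate, 0.00918% with palmitate and 0.0229% for any fatty acid. The median change over the 7 members was 0.03 with oleate and -0.02 with palmitate, beside medians of -0.02 and -0.01 over all probe sets.

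**Figure D1:**
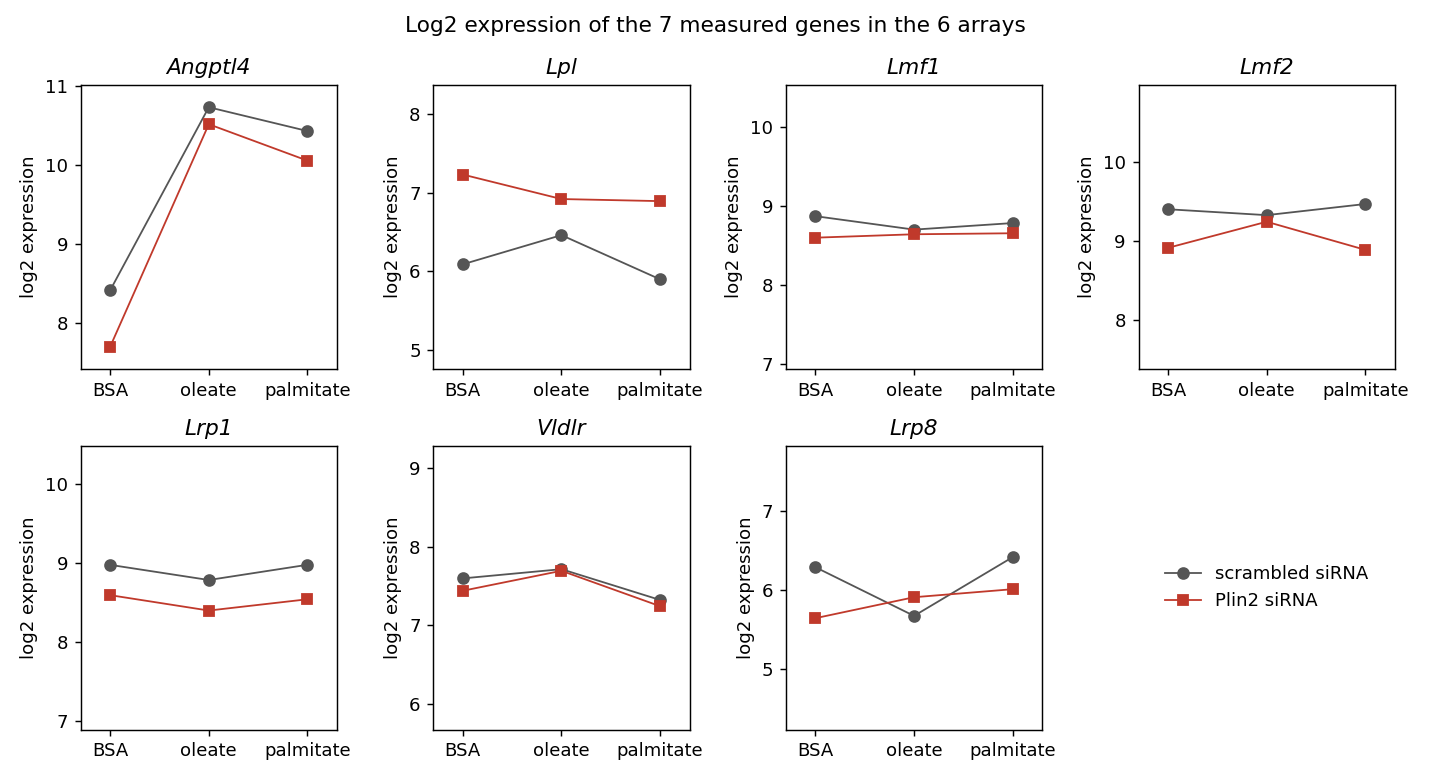
Log2 expression (y axis, all panels spanning the same number of units) of the 7 measured genes in BSA, oleate and palmitate (x axis), with scrambled siRNA as grey circles and Plin2 siRNA as red squares, 1 array per point and lines joining the arrays of 1 siRNA. Angptl4 climbs from 8.41 and 7.70 in BSA to 10.06 or more with either fatty acid, and Lpl is higher in all Plin2 siRNA arrays.

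With Plin2 siRNA, 4 of the 7 members passed the test: Lpl rose, and Angptl4, Lmf2 and Lrp1 fell. Over all named probe sets 8.5% were called higher and 8.58% lower, so the siRNA contrast had a far higher background than the fatty acid contrasts. The member median was -0.27, beside 0.01 over all probe sets. The 3 scrambled and 3 Plin2 siRNA arrays did not overlap for Lpl, which was higher, nor for Lmf1, Lmf2 and Lrp1, which were lower. Such separation occurred for 15.6% of all probe sets in the higher and 14.7% in the lower direction.

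Angptl4 was lower with Plin2 siRNA in each treatment, by 0.71 in BSA, 0.22 in oleate and 0.38 in palmitate on the log2 scale. The groups of 3 overlapped, because the fatty acid response was larger than the siRNA change. Within treatments the fitted change was -0.44 (SE 0.09, interval -0.63 to -0.24, limma adjusted p = 0.00521), 1.35-fold lower. It rested on the BSA arrays. Without scrambled BSA or without Plin2 BSA the change was -0.30, with adjusted p of 0.0652 and 0.063. The adjusted p was 0.0775 when unnamed probe sets were fitted too, and ran from 4.44e-08 to 0.358 over 13 alternatives.

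Lpl, the lipase itself, read 6.09 in BSA, 6.46 in oleate and 5.90 in palmitate with scrambled siRNA. With Plin2 siRNA it read 7.23, 6.92 and 6.89. All Plin2 siRNA arrays lay above all scrambled arrays, with the widest gap in BSA and the narrowest in oleate. The differences by treatment were 1.14, 0.46 and 0.99. The fitted change was 0.86 (SE 0.13, interval 0.58 to 1.14, limma adjusted p = 0.000691), or 1.82-fold higher. It was lost only without variance moderation (adjusted p = 0.289, the highest of 13 alternatives, the lowest being 5.68e-13), and its size ran from 0.72 to 1.06. Lpl is also made in adipocytes and macrophages. With Plin2 siRNA 0 of 8 adipocyte markers passed the test and 1 of 7 macrophage markers did, Cd68, which fell by 0.53. Over all named probe sets 8.5% were called higher and 8.58% lower. The marker gene means were 3.47 to 6.54 and 3.40 to 4.99, in cultures of a single line without other cell types. Whether the Lpl change is tied to these markers was not tested.

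Lpl did not pass the test with either fatty acid, and its response to oleate differed in sign between the siRNAs. Oleate minus BSA was 0.37 with scrambled and -0.31 with Plin2 siRNA, and palmitate minus BSA was -0.19 and -0.34. The fitted changes were 0.03 for oleate (interval -0.31 to 0.37, limma adjusted p = 0.995) and -0.26 for palmitate (interval -0.60 to 0.08, limma adjusted p = 0.96). Angptl4 and Lpl therefore had changes of opposite sign with Plin2 siRNA in each of the 3 treatments.

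**Figure D2:**
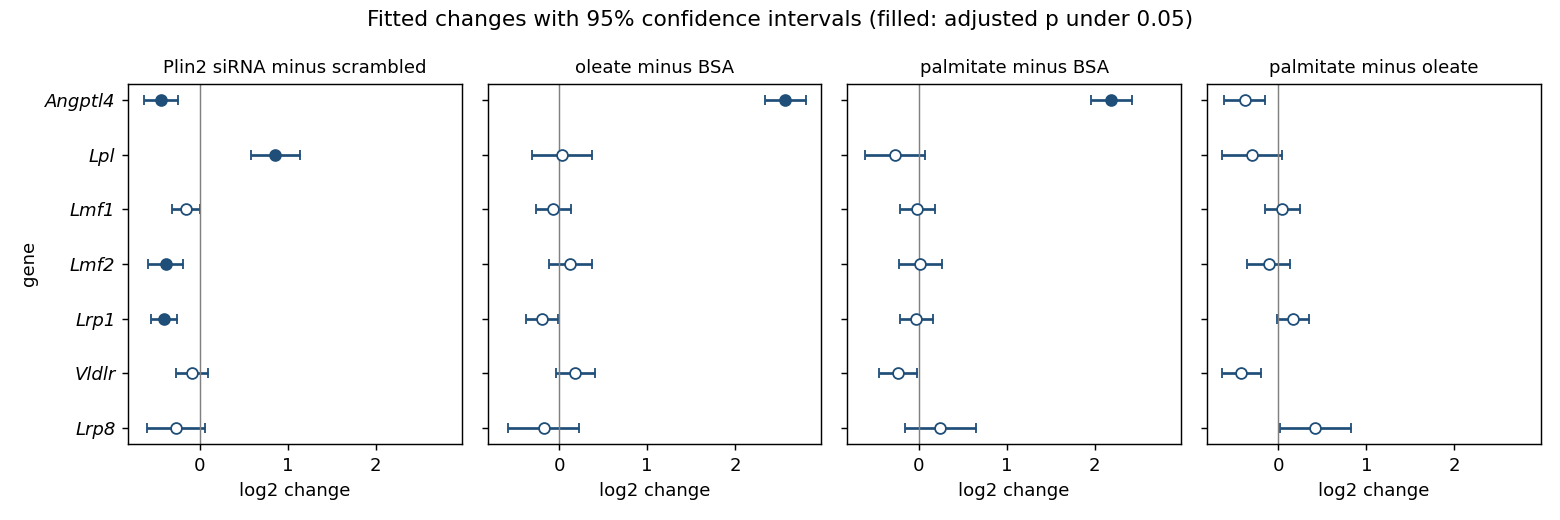
Fitted log2 change (x axis) of each member (y axis) in 4 contrasts, as points with 95% confidence intervals, filled where the limma adjusted p was under 0.05. Filled points are Angptl4, Lpl, Lmf2 and Lrp1 for the siRNA, Angptl4 alone for each fatty acid, and none for palmitate minus oleate.

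The maturation factors were both lower with Plin2 siRNA, and only Lmf2 passed the test. Lmf1, the endoplasmic reticulum protein needed for an active lipase, read 8.87, 8.70 and 8.78 in scrambled BSA, oleate and palmitate, and 8.60, 8.64 and 8.66 with Plin2 siRNA. Its lowest scrambled array stood just above its highest Plin2 siRNA array. The fitted change was -0.15 (interval -0.31 to 0.01, limma adjusted p = 0.205). Its fatty acid changes were -0.06 with oleate (interval -0.26 to 0.13) and -0.02 with palmitate (interval -0.21 to 0.18).

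Lmf2, a relative of Lmf1, read 9.40, 9.33 and 9.47 in the scrambled arrays and 8.92, 9.25 and 8.89 in the Plin2 siRNA arrays. The Plin2 siRNA oleate array lay close to the scrambled ones, and the other two were clearly lower. The differences by treatment were -0.49 in BSA, -0.08 in oleate and -0.58 in palmitate. The fitted change was -0.38 (SE 0.09, interval -0.58 to -0.18, limma adjusted p = 0.0132), 1.31-fold lower. This call was the least firm of the 4. It ended without either BSA array (-0.33, adjusted p = 0.0831 and 0.0808), without either palmitate array (-0.29, 0.0637 and 0.0619), without the intensity trend (0.0729) and with unnamed probe sets added (0.113). Over 13 alternatives its adjusted p ran from 1.78e-07 to 0.403. Oleate and palmitate changed Lmf2 by 0.13 (interval -0.12 to 0.37) and 0.02 (interval -0.22 to 0.27), neither past the threshold.

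Among the receptors, Lrp1 fell with Plin2 siRNA, while Vldlr and Lrp8 did not pass the test. Lrp1, a large endocytic receptor that clears remnants and binds the lipase, read 8.97, 8.78 and 8.97 in scrambled BSA, oleate and palmitate, and 8.59, 8.39 and 8.54 with Plin2 siRNA. The groups did not overlap, and the 3 differences were nearly equal at -0.38, -0.39 and -0.44. The fitted change was -0.40 (SE 0.07, interval -0.55 to -0.25, limma adjusted p = 0.00187), 1.32-fold lower. It was lost only without variance moderation (adjusted p = 0.174, against 0.000286 at the lowest of 13 alternatives). With either siRNA the oleate array had the lowest Lrp1 value, 0.19 and 0.20 below BSA. That fitted change of -0.19 had an unadjusted limma p of 0.0415 and an adjusted p of 0.773.

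The set of RefSeq start sites on GRCm38.p6 used here covered 6 of the 8 listed genes and had no entry for Angptl4 and Lpl. Of the 3 members whose Plin2 siRNA arrays all lay below the scrambled ones, Lmf1 and Lrp1 have a stretch of 250 bases before the start site that holds no other gene, and these are printed as the sequence before the start of those members. Lmf1 did not pass the siRNA test. The Lmf1 stretch is chr17:25578924-25579173 on the + strand and the Lrp1 stretch chr10:127621149-127621398 on the - strand, each 5′ to 3′ in the direction of the gene. Capitals mark the GC box, whose letters are GGGCGG when read on 1 strand and, as here, the reverse complement when read on the other.
Lmf1: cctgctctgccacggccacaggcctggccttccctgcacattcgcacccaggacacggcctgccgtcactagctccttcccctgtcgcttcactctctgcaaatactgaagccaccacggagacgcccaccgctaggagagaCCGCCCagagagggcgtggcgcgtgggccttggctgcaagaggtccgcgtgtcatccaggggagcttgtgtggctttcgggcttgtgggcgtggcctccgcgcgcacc
Lrp1: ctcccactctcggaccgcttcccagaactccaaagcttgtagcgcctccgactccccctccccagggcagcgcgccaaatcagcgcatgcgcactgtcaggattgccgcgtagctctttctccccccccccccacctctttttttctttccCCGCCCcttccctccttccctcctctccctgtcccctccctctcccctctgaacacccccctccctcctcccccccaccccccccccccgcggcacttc

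Each of these stretches holds 1 GC box and is rich in G and C, at 66.8% for Lmf1 and 67.2% for Lrp1. The Lmf2 stretch (chr15:89355660-89355909) holds 2 GC boxes and overlaps the neighbouring gene Ncaph2. A GC box occurs in 32.7% of 32851 stretches of this length. The nuclear receptor half-site, AGGTCA on either strand, was found in 4607 of them and in none of the Lmf1, Lmf2 and Lrp1 stretches. The same 3 stretches held no E-box, searched as CAGCTG and present in 13.0%, and no TATA box, searched on both strands as TATAAA and present in 12.4%. Vldlr has 2 start sites, the second with 1 GC box and 1 E-box, and Lrp8 has 3, the third with 1 AGGTCA. A match or its lack describes these letters only.

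Vldlr, the receptor for very low density lipoproteins, read 7.60, 7.71 and 7.32 in scrambled BSA, oleate and palmitate, and 7.44, 7.69 and 7.24 with Plin2 siRNA. The siRNA groups overlapped, and with either siRNA the order was oleate, BSA, palmitate. The siRNA change was -0.09 (interval -0.26 to 0.09, limma adjusted p = 0.596). Oleate minus BSA was 0.12 and 0.25 with the scrambled and Plin2 siRNA, and palmitate minus BSA -0.27 and -0.20. The fitted changes, 0.18 for oleate (interval -0.03 to 0.40) and -0.23 for palmitate (interval -0.45 to -0.01), did not pass (limma adjusted p = 0.825 and 0.936).

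Lrp8, the apolipoprotein E receptor that also binds reelin, read 6.29, 5.67 and 6.42 with scrambled siRNA and 5.65, 5.91 and 6.01 with Plin2 siRNA. The scrambled oleate array was low among the scrambled ones, and the groups overlapped. Its siRNA differences were -0.65, 0.24 and -0.41 in the same order of treatments, with a fitted change of -0.27 (interval -0.60 to 0.06, limma adjusted p = 0.29). Without the scrambled oleate array or without the Plin2 oleate array the change was -0.53 (adjusted p = 0.00358 and 0.0039, against up to 0.877 over 13 alternatives), in fits that borrowed 562 and 377 degrees of freedom. Lrp8 fell by 0.62 from BSA to oleate with scrambled siRNA, which was rank 207 by size of 21789, and was 0.27 higher with Plin2 siRNA. Its fitted fatty acid changes were -0.18 for oleate (interval -0.58 to 0.23) and 0.25 for palmitate (interval -0.16 to 0.65).

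Oleate carries a single double bond and palmitate none, and they form 1 pair at the same dose and time. None of the 7 members passed the test between them, and 0.262% of all named probe sets did. Unadjusted, 3 members had a limma p under 0.05, as did 2007 of the 21789 named probe sets. Vldlr was lower in palmitate by 0.39 with scrambled and 0.45 with Plin2 siRNA, a fitted difference of -0.42 (interval -0.64 to -0.20, limma adjusted p = 0.173, unadjusted p = 0.00143). Angptl4 was lower in palmitate by 0.30 and 0.46, a fitted difference of -0.38 (interval -0.62 to -0.15, limma adjusted p = 0.294, unadjusted p = 0.0044). Lrp8 was higher in palmitate by 0.74 and 0.10, a fitted 0.42 (interval 0.02 to 0.83, limma adjusted p = 0.522, unadjusted p = 0.0414). All 3 had the same sign with both siRNAs.

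The remaining intervals for palmitate minus oleate were -0.63 to 0.05 for Lpl, -0.15 to 0.24 for Lmf1, -0.35 to 0.14 for Lmf2 and -0.02 to 0.35 for Lrp1. They do not show that the fatty acids act alike on these genes. Leaving out the scrambled oleate array brought Angptl4 past the threshold (-0.55, adjusted p = 0.00188, the lowest of 14 alternatives, the highest being 0.837). Leaving out the Plin2 oleate array did so for Lpl (-0.60, adjusted p = 0.0407) and Lrp8 (0.80, adjusted p = 0.00436), whose adjusted p reached 1 in other alternatives. These fits, too, borrowed 562 and 377 degrees of freedom.

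Whether the fatty acid response differed between the siRNAs was tested as an interaction of siRNA with any fatty acid. None of the 7 members was called, and 0% of the named probe sets were (551 of 21789 at an unadjusted limma p under 0.05). The Angptl4 response was larger with Plin2 siRNA by 0.42 (interval 0.06 to 0.78, limma adjusted p = 1, unadjusted p = 0.0255). Its BSA arrays differed more between the siRNAs than its oleate or palmitate arrays. For Lrp8 the difference was 0.56 (interval -0.04 to 1.16, limma adjusted p = 1, unadjusted p = 0.0664) and for Lpl -0.41 (interval -0.96 to 0.13). The other 4 members had differences from -0.03 for Lrp1 to 0.18 for Lmf1.

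**Figure D3:**
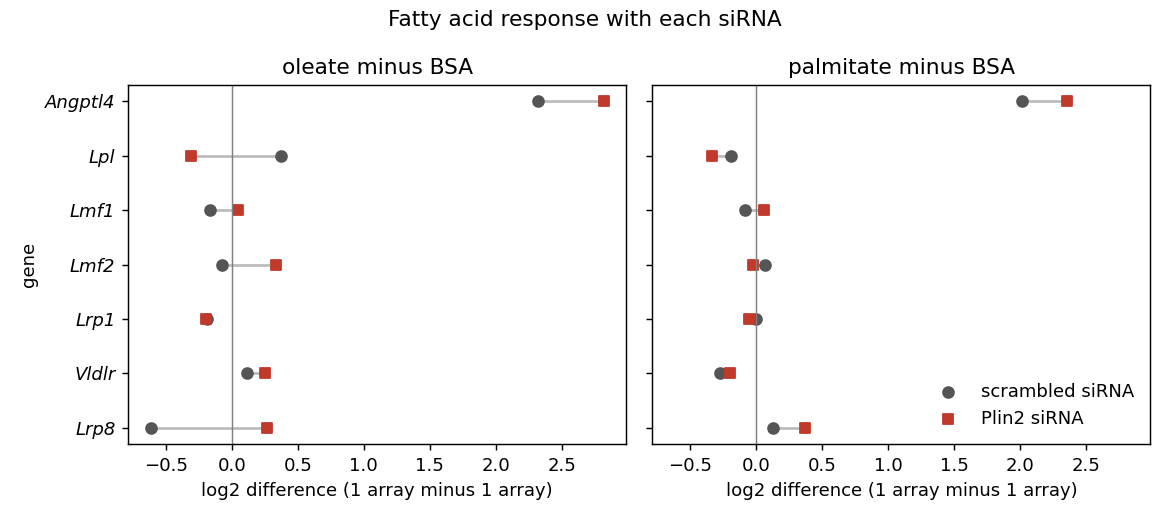
Log2 difference between 1 fatty acid array and the BSA array of the same siRNA (x axis) for each member (y axis), oleate on the left and palmitate on the right, with grey circles for scrambled and red squares for Plin2 siRNA and a bar joining them. Angptl4 lies at 2.02 to 2.82 in all 4 differences, and Lpl, Lmf1, Lmf2 and Lrp8 have oleate differences of opposite sign with the 2 siRNAs.

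Relatives of the lipase, and genes listed for its control, were mostly not called. Of 27 listed symbols of lipase control 23 were measured. With Plin2 siRNA 4 of the 23 fell and 0 rose, beside 8.58% called lower and 8.5% called higher over all probe sets. The list median was -0.01 beside 0.01 over all probe sets. The 4 were the proprotein convertase genes Furin (-0.58) and Pcsk6 (-0.50), whose kind of enzyme cleaves the lipase and its angiopoietin-like inhibitors, the heparan sulfate proteoglycan gene Sdc1 (-0.54) and the disulfide isomerase gene Pdia4 (-0.24). Their limma adjusted p lay between 0.000242 and 0.0173. None of the 23 passed with a fatty acid, and at an unadjusted limma p under 0.05 there were 3 with oleate and 2 with palmitate. Among the 21789 named probe sets there were 1365 and 1134. The lipase anchor gene Gpihbp1 read 4.82 to 5.23 over the 6 arrays.

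Of 9 listed symbols of angiopoietin relatives 7 were measured, and 1 passed with Plin2 siRNA, in the higher direction, beside 8.5% over all probe sets. Angpt1, the ligand of the Tie2 receptor, read 8.55, 9.09 and 8.70 in the scrambled arrays and 9.38, 9.43 and 9.54 in the Plin2 siRNA arrays. It was higher in all Plin2 siRNA arrays, by a fitted 0.67 (SE 0.09, limma adjusted p = 0.00052). None of the 7 passed with a fatty acid, and at an unadjusted limma p under 0.05 there was 1 with oleate and 0 with palmitate. Among the 21789 named probe sets there were 1365 and 1134.

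Of 30 listed symbols of other lipoprotein receptors and their adaptors 25 were measured. With Plin2 siRNA 4 were called higher and 2 lower, beside 8.5% and 8.58% over all probe sets. The list median was -0.01 beside 0.01. The agrin receptor Lrp4 rose by 0.41, the sorting receptor Sort1 by 0.44, the endocytic adaptor Dab2 by 0.42 and the endosomal adaptor Snx17 by 0.34. The receptor-like Ldlrad3 fell by 0.28, and Lrpap1, the chaperone of the receptor family that includes Lrp1, fell by 0.26. Limma adjusted p for the 6 lay between 0.00329 and 0.0333. None of the 25 passed with oleate, with palmitate or between them. At an unadjusted limma p under 0.05 there were 2, 1 and 3, beside 1365, 1134 and 2007 of the 21789 named probe sets.

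Genes that PPAR receptors are known to control, with the receptors themselves, formed a list of 32, of which 28 were measured. Beside 0.0321% of all probe sets called higher with oleate and 0.00918% with palmitate, 3 of the 28 rose with oleate and 1 with palmitate. With oleate these were Pdk4, Cpt1a and Plin2. Pdk4, a kinase that blocks glucose oxidation, rose by 1.43 (SE 0.12, limma adjusted p = 0.000577). Cpt1a, whose enzyme joins long-chain fatty acids to carnitine for mitochondrial import, rose by 1.40 (SE 0.08, limma adjusted p = 2.87e-05). Plin2 rose by 0.71 (SE 0.10, limma adjusted p = 0.0234). With palmitate it was Cpt1a, by 1.18 (SE 0.08, limma adjusted p = 0.000183). Pdk4 was the 1 gene of this list called between the fatty acids, beside 0.262% of all probe sets. It was lower in palmitate by 0.89 on the log2 scale (limma adjusted p = 0.0112). The list medians were 0.07 with oleate and -0.01 with palmitate, beside -0.02 and -0.01 over all probe sets.

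With Plin2 siRNA 6 of the 28 genes of the PPAR list rose and 3 fell, beside 8.5% and 8.58% over all probe sets. The 3 include Plin2, the target of the siRNA, whose fall was set by the design. The fatty acid transporter Cd36 rose by 2.21, the coactivator Ppargc1a by 1.52, the carnitine carrier Slc25a20 by 0.56, Ppara by 0.54, the dehydrogenase Acadl by 0.50 and Cpt1a by 0.27. The hormone gene Fgf21 fell by 2.05 and the fatty acid-binding protein gene Fabp3 by 1.45, besides Plin2 itself. Without Plin2, limma adjusted p for these lay between 2.09e-07 and 0.018. The list median, with Plin2 included, was 0.09.

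**Figure D4:**
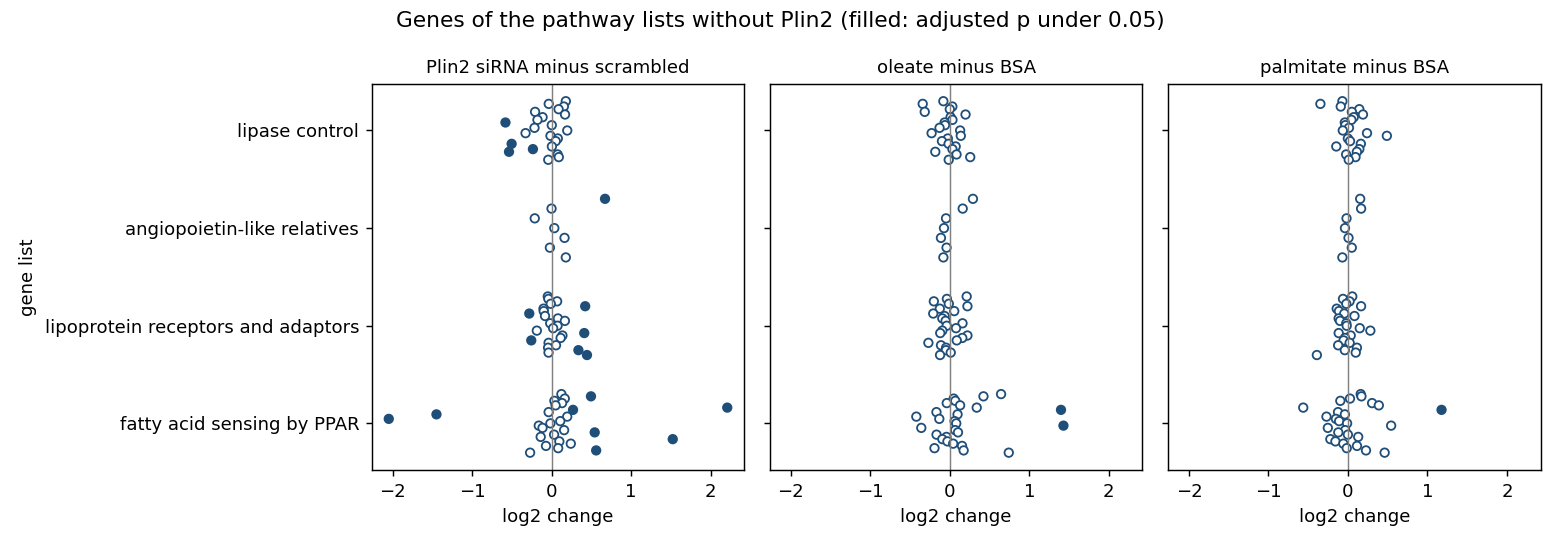
Fitted log2 change (x axis) of each measured gene of the 4 lists (y axis) with Plin2 siRNA, oleate and palmitate, 1 point per gene, filled where the limma adjusted p was under 0.05, with Plin2 left out and points moved vertically so that they do not overlap. Filled points appear in every list with Plin2 siRNA, and with the fatty acids only in the PPAR list, at 1.18 to 1.43.

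For each called member, the 3 genes of 19937 with the closest profile were taken by the root mean square distance over the 6 arrays, after subtracting each gene's own mean. Angptl4 had no close match: its own values spread by 1.16 about their mean, and the nearest genes were Cpt1a at 0.637, Pdk4 at 0.705 and the uncoupling protein gene Ucp3 at 0.859. Ucp3 was 0.74 higher with oleate and 0.46 higher with palmitate, neither past the threshold (limma adjusted p = 0.319 and 0.932).

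The other called members had nearer matches. The Lpl values spread by 0.474, and its nearest were Rab40b at 0.0616, Ell2 at 0.090 and Siah1a at 0.0958, a small GTPase, a transcription elongation factor and a ubiquitin ligase. Lmf2, with a spread of 0.228, lay nearest to Sypl2 at 0.0437, Arvcf at 0.0463 and Mrm3 at 0.0516. Lrp1, with a spread of 0.219, lay nearest to Zpr1 at 0.0241, Sdad1 at 0.028 and Sptan1 at 0.0361. These distances describe 6 arrays and were selected from all genes, so they carry no test.

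**Figure D5:**
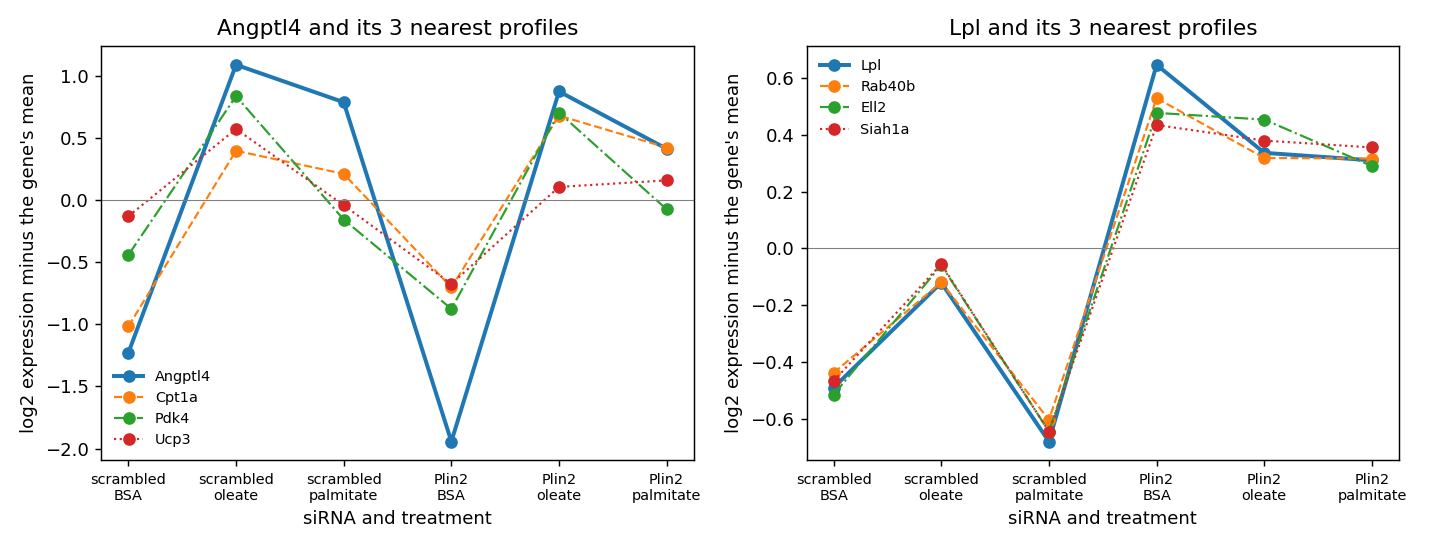
Log2 expression minus each gene's own mean (y axis) in the 6 arrays (x axis) for Angptl4 with Cpt1a, Pdk4 and Ucp3 on the left, and for Lpl with Rab40b, Ell2 and Siah1a on the right, 1 array per point. The Lpl matches lie within 0.0616 to 0.0958 of it (root mean square), whereas those of Angptl4 rise less from BSA to the fatty acids and lie 0.637 to 0.859 away.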

How the data were processed

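Total RNA of C2C12 myotubes was labelled from 100 ng and measured on Affymetrix whole-transcript arrays, 1 for each of 6 conditions. The authors deposited log2 expression values per probe set, made by RMA per the submitters' processing notes. RMA subtracts background, brings the arrays to 1 distribution and combines the probes of a probe set, which can compress changes of low genes. For its version and for the genome build, the sources used here give nothing. Values were used as deposited, without further scaling or filtering. GEO's platform annotation, which can be old, gave 1 symbol for 21789 of 35556 probe sets and several for 1621, and 12146 were unlisted. Of the 21789, Entrez IDs placed 21698 in a RefSeq gene table (GRCm38.p6), and 0 symbols changed.

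Changes were fitted over the named probe sets with limma 3.58.1 in R 4.3.3 (treatment and siRNA as terms, eBayes with an intensity trend, 2 residual and 9.21 prior degrees of freedom). An siRNA change thus takes its error from the treatments, and a fatty acid change from the siRNAs. The interaction model left 1 residual degree of freedom. Benjamini-Hochberg adjustment ran over all named probe sets, and a change was called at an adjusted p under 0.05. Each p is two-sided and from limma. The number of arrays limits the precision. The fit was tested on simulated data.

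Genes named are the listed members, Plin2, each gene of the pathway lists past the threshold in any contrast, and the 3 nearest profiles of each called member. Gpihbp1 and marker genes are named besides. Listed totals count symbols, so a gene listed under an old and a new symbol is counted under each. The members, lists and tests were chosen with earlier results of these data known. Alternatives were no intensity trend, all probe sets, dropping the lowest 33.3% by mean, quantile normalization, median centring, no moderation, the lowest-mean probe set of a gene, only the arrays of the treatments compared, and leaving out each array.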

Additional observations from a re-analysis of the deposited data

Results flagged for a closer look

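The Lmf1 response to fatty acids had opposite signs with the 2 siRNAs. With scrambled siRNA Lmf1 was 0.17 lower in oleate and 0.09 lower in palmitate than in BSA, and with Plin2 siRNA it was 0.04 and 0.06 higher, on the log2 scale. The difference of the responses was 0.18 (limma interaction, unadjusted p = 0.342, adjusted p = 1), so it did not pass the test.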

How the results depend on the processing

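Of the 7 members, 4 were called with Plin2 siRNA, 1 with oleate, 1 with palmitate, 1 with any fatty acid and 0 between the fatty acids. With unnamed probe sets added to the fit these counts were 2 with the siRNA, 0 with oleate and 0 with palmitate. Without variance moderation they were 0 with the siRNA, 0 with oleate, 0 with palmitate and 0 with any fatty acid. Leaving out 1 array gave 2 to 5 with the siRNA and 0 to 2 between the fatty acids. Over single members and settings, 405 values kept direction and call, 18 lost the call, 5 gained one and 19 changed sign. The 405 include every value of the lowest-mean probe set setting, which repeats the main fit and could not differ. The 5 gained calls all came without an oleate array, with 1 residual degree of freedom. All 19 sign changes were of uncalled values, and the cause was not tested. They were the Lmf1 palmitate change with quantile normalization (0.0048), the Lrp1 interaction with median centring (0.0197), and changes that crossed 0 when 1 array was left out. With oleate these ran from -0.27 to 0.33 for Lpl, -0.15 to 0.026 for Lmf1, -0.098 to 0.35 for Lmf2 and -0.56 to 0.21 for Lrp8. With palmitate they ran from -0.10 to 0.073 for Lmf1, -0.13 to 0.17 for Lmf2, -0.051 to 0.00018 for Lrp1 and -0.033 to 0.53 for Lrp8. Between palmitate and oleate they ran from -0.60 to 0.0103 for Lpl, -0.023 to 0.12 for Lmf1 and -0.33 to 0.12 for Lmf2.

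Over all named probe sets, the 3721 siRNA calls became 2403 without the intensity trend, 2159 with unnamed probe sets, 2215 without scrambled BSA, 2213 without Plin2 BSA and 0 without moderation. The other counts were 16 with oleate (0 to 262 over the alternatives), 2 with palmitate (0 to 119), 57 between the fatty acids (0 to 538), 5 with any fatty acid (0 to 93) and 0 for the interaction (1 without moderation). The interaction could not be fitted with 1 array left out. Each member has 1 probe set, so the lowest-mean choice gave the same values, although it counts among the alternatives throughout. No detection call was used, and changes of dim probe sets are less precise.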
